A study of Mus musculus with 3 samples.

Results

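T cells of the mouse duodenum with RNA of the beta chain of the CD8 alpha-beta co-receptor were described across genes, across wells and across saline and alpha-synuclein treatment. A cell was taken as a CD8 alpha-beta T cell where it had at least 1 UMI (unique molecular identifier, a count of 1 captured RNA molecule) of Cd8b1, which encodes the CD8 beta chain, and at least 1 of Cd3e, a chain of the CD3 complex. It also had no UMI of Trdc (the delta chain constant region) or Cd4, and fewer than 2 UMIs of Klra6, Klra7 and Klre1 together. Cells entered with 500 or more UMIs over 200 or more genes, and with no more than 15% of their UMIs from mitochondrial genes. Of 33284 such cells 1301 met the rule. It does not ask for the CD8 alpha chain gene Cd8a. Of the 81 members in saline 1, 52 also had a UMI of both Cd8a and Cd3d, as did 46 of 48 in saline 2 and 209 of 220 in PFF 1. The members were chosen by their UMI counts of these 7 genes, so the values of those genes are given below as a description and support nothing by themselves.

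The study profiled immune cells of the duodenum of C57B6/J mice, male per the series title, 30 days after the duodenal wall was injected with saline or with recombinant mouse alpha-synuclein preformed fibrils (PFF). The fibrils are aggregated alpha-synuclein, the protein that forms inclusions in Parkinson's disease. All libraries were made from minced tissue digested with Accumax, of which a portion was stained for CD45 and sorted and the rest was enriched on CD11b beads and cleared of dead cells, before both were pooled on the 10x platform. There are 2 saline samples and 1 PFF sample, and the number of mice in each is not given in the sources used here, so p-values measure only the spread between these libraries, which may be technical. Saline 1 and PFF 1 are labelled batch 1 and saline 2 is labelled batch 2. Each saline file joins 4 wells, of which 3 hold the same barcodes with identical counts in both files. Those 3 shared saline wells were therefore counted once, as a pooled library of their own where cell classes are compared and as values beside the PFF comparison.

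CD8 T cells recognise peptides on MHC class I molecules, and the CD8 alpha-beta heterodimer holds the co-receptor and its kinase Lck at the T cell receptor. In the small bowel, many lie within the epithelium, held there by the integrin CD103 (Itgae) on E-cadherin, and are armed with granzymes. They sit beside gamma-delta T cells and beside alpha-beta T cells that carry only CD8 alpha chains, which are often called natural or unconventional intraepithelial lymphocytes and which use natural killer type receptors and adapters. Conventional T cells that came from lymph nodes are known for Thy1, CD5, CD2, CD6 and CD28.

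Some cells that met the rule carried genes of other lineages. At least 2 UMIs of Siglech, a receptor of plasmacytoid dendritic cells, or of Cd79a, part of the B cell receptor, or at least 10 UMIs of the immunoglobulin light chain Igkc were found in 45 of the 1301 cells. There were 5 in saline 1, 2 in saline 2, 1, 0 and 30 in shared wells 1, 2 and 3, and 7 in PFF 1. Of the 19 with Siglech, 14 had a lone Cd3e UMI and 15 had no UMI of Trac, Trbc1 or Trbc2. Outside the class, 66.5% of 370 cells with at least 2 Siglech UMIs had a Cd8b1 UMI. The comparisons below are therefore given with these cells and, where a call or value changes, without them.

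Depth differed between wells. The medians for CD8 alpha-beta T cells were 2779 UMIs in saline 1, 13019 in saline 2, 4087, 3779.5 and 6216 in the shared wells and 8732.5 in PFF 1, and 6268 UMIs and 2477 genes over all of them. Barcode sequences shared by 2 libraries numbered 119 between saline 2 and PFF 1, against 1 to 42 in the other pairs. Of these, 93 passed the cell filter in both, with a median of 62126 UMIs in saline 2 and 691 in PFF 1. They include 2 CD8 alpha-beta T cells of PFF 1 and none of saline 2.

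The class is small and unevenly spread over the wells. It took up 1.48% of the cells kept in saline 1 (81 of 5459, exact 95% interval 1.18% to 1.84%) and 1.11% in saline 2 (48 of 4332, 0.818% to 1.47%). In the shared saline wells the shares were 5.74% (4.38% to 7.37%), 3.23% (2.45% to 4.17%) and 9.87% (9.24% to 10.5%), or 8.48% (7.97% to 9.01%) with the 3 pooled. In PFF 1 it was 1.79% (220 of 12263, 1.57% to 2.04%). The PFF share thus lay above both unshared saline wells, with an interval that overlaps that of saline 1, and below each shared well. With each cell thinned to 2000 UMIs the order of saline 1 and PFF 1 turned, at 1.09% (0.816% to 1.42%) and 1.04% (0.860% to 1.24%). Among cells with a Cd3e UMI the order was alike, with 1.60% in saline 1, 1.46% in saline 2, 9.16%, 6.97% and 11.3% in the shared wells and 2.11% in PFF 1. The intervals are Clopper-Pearson and cover counting error only. With 1 PFF library and 2 unshared saline libraries, no permutation of libraries can reach a p under 0.05, so no test was made. The share of barcodes over the mitochondrial limit also differed, from 2.61% in shared well 3 and 3.04% in saline 1 to 52.2% in shared well 2, and its part in the shares was not tested.

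**Figure D1:**
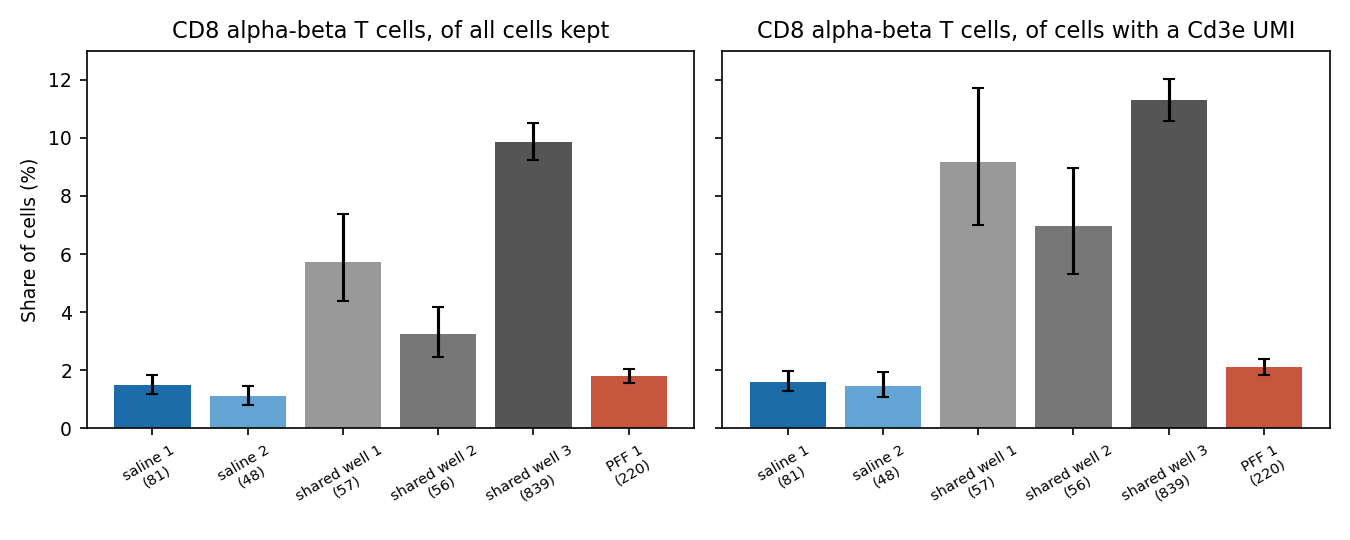
Share of CD8 alpha-beta T cells in each well, as a percent of all cells kept (left) and of cells with a Cd3e UMI (right); bars are single wells, error bars exact 95% intervals for counting error, and the number of cells is in parentheses. Saline 1, saline 2 and PFF 1 lie between 1.11% and 1.79% of cells kept, and the shared saline wells between 3.23% and 9.87%.

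How near the rule's limit a cell lies also differed between wells. A lone Cd8b1 UMI was carried by 324 of the 1301 cells, and the share with 2 or more was 53.1% in saline 1, 43.8% in saline 2, 84.2%, 71.4% and 80.0% in the shared wells and 70.0% in PFF 1. B cells, which should lack the gene, held a Cd8b1 UMI in 12 of 1014 cells (1.18%, exact 95% interval 0.613% to 2.06%, median depth 6721.5 UMIs), and 2 or more in 1 cell. All cells with a Cd3e UMI held Cd8b1 in 7.04% (median depth 6937 UMIs), which ranged from 2.59% in saline 1 and 2.83% in saline 2 to 4.18% in PFF 1 and 15.7% in shared well 3. In saline 2, with 1 of 81 B cells positive (interval 0.0313% to 6.69%), and in saline 1, with 0 of 40 (interval up to 8.81%), the share in T cells could not be told from that background at this depth. In PFF 1 and shared well 3 the share in Cd3e cells was above that of B cells, 0.960% (0.312% to 2.23%) and 1.73% (0.639% to 3.74%). Cd3e cells include those with Trdc, left out by the rule, which held Cd8b1 in 2.66% in PFF 1 and 6.32% in shared well 3. The shares in Trdc cells lay between those of B cells and of all Cd3e cells. Cd8b1 belongs to the rule and cells are not replicates, so all of these shares are a description only. Just outside the rule were 88 cells that met it but for a lone Trdc UMI. In all, 537 of the 1945 cells with Cd8b1 and Cd3e were left out for Trdc, 81 carried Cd4 and 95 reached the limit on the Klra genes, while 36 cells just inside had 1 UMI of those.

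Receptor genes of alpha-beta T cells that the rule did not use were detected in more of the class than of B cells. B cells as background cannot tell alpha-beta from gamma-delta T cells. With each cell thinned to 1000 UMIs, Cd3d was detected in 50.5% of the class and 1.19% of B cells, Cd3g in 60.3% and 1.29%, and Cd8a in 55.2% and 1.88%. For the constant regions of the receptor the shares were 32.1% and 0.396% for Trac, 34.0% and 0.891% for Trbc1, and 63.7% and 1.09% for Trbc2. Without thinning, Trac was found in 82.2% and Trbc2 in 94.4% of the class. Cd8b1 (chr6:71322788-71337494, plus strand) and Cd8a (chr6:71373427-71379173, plus strand) are separate genes, 35932 bases apart in the mm10 annotation. Trac and Trbc2 were thus found in most cells when these were not thinned. The gamma chain gene Tcrg-C1 was also present. Without the other-lineage cells it stood at 212, 254, 153 and 203 CPM in cells with a lone Cd8b1 UMI. These are saline 1, saline 2, the pooled shared wells and PFF 1. In cells with more Cd8b1 UMIs it stood at 51.0, 183, 34.4 and 101 CPM.

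By UMI count, the leading genes that are neither ribosomal nor mitochondrial were led by the noncoding RNAs Gm42418 and Malat1, followed by Tmsb4x, the chemokine Ccl5 (11023 CPM, UMIs per 1000000 UMIs of the summed cells, over all cells of the class), Actb and the protease granzyme A (Gzma, 7264 CPM). Ccl5 stood at 8327 CPM in saline 1, 9907 in saline 2, 14608, 20220 and 11372 in the shared wells and 9236 in PFF 1. Itgae was even across the wells, at 1008, 1186, 705, 894, 1145 and 1042 CPM in the same order. Igkc also came among the 15 leading genes, at 2786 CPM, but 12391 of its UMIs lay in 1 cell of shared well 3, and 5080 of 5085 in shared well 1 lay in 1 cell.

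The class holds cells of different kinds. With each cell thinned to 1000 UMIs, 44.2% of 1296 cells had at least 1 UMI of Thy1, Cd5, Cd2, Cd28 or Cd6 and none of Fcer1g or Tyrobp, the signal adapters of natural killer type receptors. The reverse held for 17%, both kinds of gene were detected in 3.01%, and neither in 35.8%. Saline 2 stood apart, with 8.33% of its cells in the first kind and 77.1% in the second, against 33.8% and 23.8% in saline 1, 50.1% and 9.69% in the shared wells and 30.6% and 32.9% in PFF 1. These values include the other-lineage cells. Without them the shares were 45.3% and 15.9% over the class, and 36.0% and 18.7% in saline 1. In the other classes, also without them, the shares were 1.44% and 79.6% in gamma-delta T cells and 0.757% and 87.3% in Cd8b1-negative CD8 T cells. In CD4 T cells they were 45.7% and 20.2%.

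The split moved with the number of Cd8b1 UMIs in every library. Of cells with 2 or more, 50.1% were of the first kind and 7.98% of the second, and of cells with a lone UMI 26.3% and 44.5%. In PFF 1 the second kind made up 15.6% and 73.8%, in saline 1 11.6% and 37.8%, in saline 2 61.9% and 88.9%, and in the shared wells 4.74% and 29.5%. Without the other-lineage cells, Fcer1g was at 618, 1235, 582 and 1172 CPM in the cells with a lone Cd8b1 UMI of saline 1, saline 2, the pooled shared wells and PFF 1, and at 34.0, 835, 73.7 and 304 CPM in those with more. Gzma was also lower where Cd8b1 was higher, from 8204, 25913, 9490 and 16618 CPM down to 3214, 18162, 4855 and 6434 CPM. Itga4, the integrin alpha4 chain that with beta7 binds gut vessels, went the other way, from 318, 33.5, 747 and 71.1 CPM to 1037, 332, 1270 and 331 CPM. These are descriptions over cells, since cells of a library are not replicates. Cells were split by raw Cd8b1 UMIs, which were not thinned and belong to the rule. The part of depth and of background Cd8b1 in this split was not tested.

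**Figure D2:**
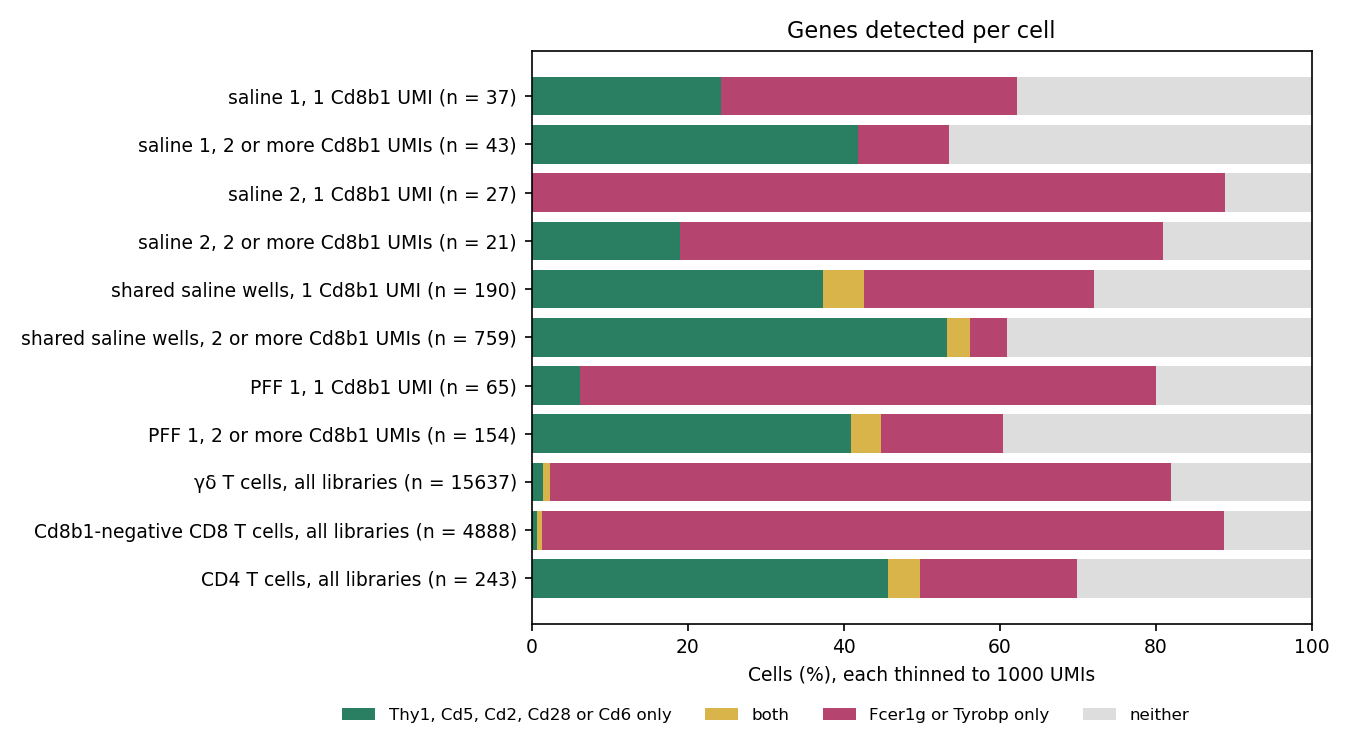
Percent of cells, each thinned to 1000 UMIs, with only the conventional T cell genes (Thy1, Cd5, Cd2, Cd28, Cd6), only the adapters (Fcer1g, Tyrobp), both or neither, by library and number of Cd8b1 UMIs, beside gamma-delta, Cd8b1-negative CD8 and CD4 T cells. In each library the adapter-only part is larger among cells with a lone Cd8b1 UMI, and in saline 2 it is the larger part of both. Bars of CD8 alpha-beta T cells include the other-lineage cells, and bars of the other classes leave them out.

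Against gamma-delta T cells, the CD8 alpha-beta class had more RNA of Cd5, Cd28, Cd2, Cd6 and Thy1 and of genes of circulating T cells. It had less of granzyme B and of some natural killer type genes, such as Fcer1g. The 15815 gamma-delta cells had Trdc and Cd3e but no Cd8b1 or Cd4, and fewer than 2 UMIs of Klra6, Klra7 and Klre1 together. Sums per library were compared with edgeR with the library as a block. In what follows, 4 values in a row are CPM in saline 1, saline 2, the pooled shared saline wells and PFF 1, and fold changes are log2 ± SE with Benjamini-Hochberg adjusted p over all genes tested. Of 12630 genes, 643 (5.09%) passed at an adjusted p under 0.05, 381 (3.02%) higher and 262 (2.07%) lower in the class. Without the other-lineage cells 311 passed, 173 higher and 138 lower, of which 299 were among the 643.

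Among receptor and signalling genes 7 of 21 were higher and 1 lower. Cd5, an inhibitor of receptor signalling, stood at 53.0, 17.3, 106 and 63.7 CPM, against 0.177, 0, 1.08 and 0.382 in gamma-delta cells (7.30 ± 0.35, adjusted p = 8.77e-06). Cd28, the costimulatory receptor for CD80 and CD86, stood at 34.1, 4.72, 93.1 and 29.0 CPM, against under 1 CPM in each gamma-delta library (6.68 ± 0.32, adjusted p = 8.77e-06). Both were lowest in saline 2, and in neither gene did the classes overlap. The adhesion receptors Cd2 (4.92 ± 0.22) and Cd6 (4.66 ± 0.25) were higher too, as was Thy1, at 227, 47.2, 301 and 165 CPM against 22.1, 11.5, 14.3 and 18.9 CPM (3.37 ± 0.34, adjusted p = 7.43e-04). Trac (0.91 ± 0.11), Trbc2 (0.88 ± 0.15) and the adapter Lat (1.59 ± 0.36) completed the group. Cd3g was lower (-0.65 ± 0.14, adjusted p = 0.0358), a call lost without the other-lineage cells (adjusted p = 0.0835).

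The promoters of genes from the 2 opposed groups are shown because these genes differed between the classes in opposite directions and because RUNX factors, among them Runx3 of CD8 T cells, bind a known core, TGTGGT. Each runs from 250 bases before to 50 after the RefSeq start, on the gene's strand, with capitals marking that core on either strand (its reverse complement reads ACCACA). Cd5 is at chr19:10738925-10739224, Fcer1g at chr1:171234300-171234599, Gzma at chr13:113100932-113101231 and Gzmb at chr14:56262285-56262584, all on the minus strand of GRCm38.p6.
Cd5: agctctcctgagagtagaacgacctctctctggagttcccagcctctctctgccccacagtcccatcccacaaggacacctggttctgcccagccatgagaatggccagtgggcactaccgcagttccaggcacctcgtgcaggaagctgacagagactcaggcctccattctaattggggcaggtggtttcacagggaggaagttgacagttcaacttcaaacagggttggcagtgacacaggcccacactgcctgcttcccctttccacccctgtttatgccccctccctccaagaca
Fcer1g: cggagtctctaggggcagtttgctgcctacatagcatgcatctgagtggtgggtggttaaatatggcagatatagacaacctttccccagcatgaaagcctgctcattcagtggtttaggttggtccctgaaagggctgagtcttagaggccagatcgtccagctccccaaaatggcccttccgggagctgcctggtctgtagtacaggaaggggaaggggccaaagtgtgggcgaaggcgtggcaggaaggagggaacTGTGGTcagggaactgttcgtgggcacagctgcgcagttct
Gzma: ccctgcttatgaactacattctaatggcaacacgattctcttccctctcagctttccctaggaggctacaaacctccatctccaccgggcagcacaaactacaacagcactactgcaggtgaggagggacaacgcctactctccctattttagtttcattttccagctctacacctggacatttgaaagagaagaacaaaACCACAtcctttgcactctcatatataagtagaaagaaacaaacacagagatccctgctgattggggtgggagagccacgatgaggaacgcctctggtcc
Gzmb: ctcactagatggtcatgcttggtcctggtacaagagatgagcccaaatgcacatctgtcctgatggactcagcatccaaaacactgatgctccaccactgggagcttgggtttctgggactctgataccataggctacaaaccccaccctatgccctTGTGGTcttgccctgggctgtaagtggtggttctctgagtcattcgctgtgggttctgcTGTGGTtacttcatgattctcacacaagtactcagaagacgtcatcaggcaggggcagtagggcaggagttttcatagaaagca
The core was found once in the windows of Fcer1g and Gzma, 2 times in Gzmb and not in that of Cd5. Windows of Cd8a and Cd3e, searched but not shown, also lacked it. Cd5 is the only higher gene shown, so no pattern between the groups is read. The core is present in 16.8% of all 32851 promoter windows of this length (5506), and a match is a description of letters only.

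Of 15 cytotoxic genes 3 were lower and none was higher, and without the other-lineage cells 1, Gzmb, was lower. Gzma stood at 5183, 21467, 5442 and 8877 CPM, against 17376, 24553, 17178 and 16994 in gamma-delta cells, lower in 4 of 4 libraries (-1.10 ± 0.26, adjusted p = 0.0477, and 0.0857 without the other-lineage cells). Granzyme B (Gzmb) stood at 917, 3116, 728 and 1398 CPM against 3038, 4201, 2635 and 2695 (-1.20 ± 0.23, adjusted p = 0.0184). In saline 2, the library with the largest share of adapter-bearing cells in the class, both granzymes came nearest to the gamma-delta level. A link between that share and the granzymes was not tested. Tnfsf10, the death ligand TRAIL, was lower by a smaller amount (-0.70 ± 0.15), a call lost without the other-lineage cells (adjusted p = 0.0783). Perforin (Prf1, -0.33 ± 0.22, adjusted p = 0.531) and Nkg7 (-0.21 ± 0.15, adjusted p = 0.573) did not pass.

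Homing receptors were higher while the retention genes did not pass. Of 21 tested genes of residence and homing, 6 were higher and none lower, and without the other-lineage cells 3 were higher. Itga4 stood at 621, 171, 1139 and 252 CPM, against 103, 54.5, 65.8 and 77.7 (2.55 ± 0.40, adjusted p = 0.00777), and Ccr9, the receptor for the small-bowel chemokine CCL25, at 826, 337, 430 and 456 against 293, 192, 175 and 251 (1.16 ± 0.15, adjusted p = 0.00315). The inflammatory chemokine receptor Cxcr3 (1.19 ± 0.27) was also called, but not without the other-lineage cells (adjusted p = 0.0535). Itgae (-0.33 ± 0.13, adjusted p = 0.218) and the retention marker Cd69 (-0.10 ± 0.18, adjusted p = 0.899) missed the threshold.

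Genes of naive and circulating T cells were higher as a group, 11 of 12 tested, with a median log2 fold change of 3.6 against -0.01 over all genes tested. Lef1, a transcription factor of early T cells, stood at 102, 101, 157 and 179 CPM against 9.85, 7.77, 17 and 10.2 (3.67 ± 0.18, adjusted p = 9.07e-06). Il7r, the survival receptor for interleukin 7, stood at 398, 120, 67.9 and 205 CPM against 21.5, 10.3, 10.1 and 17.9 (3.52 ± 0.20). The levels of S1pr1 (4.36 ± 0.42), which guides exit from tissue, and Klf2 (3.86 ± 0.44) were low in both classes, at most 42.6 CPM. Tcf7, a transcription factor of naive and memory T cells, missed the threshold (1.36 ± 0.34, adjusted p = 0.0580).

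Of 18 natural killer type receptors and adapters, 5 were lower and 2 higher, with 9 fitted on each side of 0 and a median log2 fold change of -0.04 (-0.01 over all genes tested). Without the other-lineage cells 4 were lower and 1 higher. Fcer1g stood at 337, 1049, 160 and 557 CPM against 1117, 1561, 1263 and 1209 (-1.55 ± 0.32, adjusted p = 0.0263). Klrd1 (CD94, -1.08 ± 0.19), Cd7 (-1.11 ± 0.21), Klrb1 (-1.65 ± 0.32) and Cd244a (-0.89 ± 0.20) were lower, the last not without the other-lineage cells (adjusted p = 0.0759). Tyrobp (-0.91 ± 0.35, adjusted p = 0.211) did not pass, and Cd226, an activating receptor for nectins, was higher (1.34 ± 0.21, adjusted p = 0.00789). Receptors of costimulation and inhibition differed in both directions, with Icos (4.65 ± 0.54), Pdcd1 (3.58 ± 0.60) and Btla (3.19 ± 0.46) higher and Lag3 (-0.98 ± 0.17) lower. Of 20 interferon response genes 5 were higher and none lower, among them Iigp1 (3.62 ± 0.41) and Ifi27l2a (2.50 ± 0.40). Bst2, at 2.40 ± 0.16, fell to 0.78 (adjusted p = 0.273) without the other-lineage cells.

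Several calls were lost without the other-lineage cells, and others were of epithelial genes. Zeb2 (1.30 ± 0.23), the dendritic cell cytokine receptor Flt3 (2.71 ± 0.40) and Cd74 (1.03 ± 0.24) were higher with the other-lineage cells in and stood at -0.15, -0.41 and -0.60 without them. Of 16 genes of absorptive epithelium, 15 were lower in the class than in gamma-delta cells (13 without the other-lineage cells), such as Apob, at 0, 6.29, 3.52 and 1.87 CPM against 5.06, 82.1, 34.7 and 15.9. The goblet cell gene Zg16 reached 929 CPM in gamma-delta cells of saline 2 and 572 in PFF 1 and was at 4.08 in saline 1 and 8.28 in the shared wells. The part of epithelial RNA in the other differences was not tested. With fewer libraries the counts moved: 199 genes passed without saline 1, 1205 without saline 2 and 206 without PFF 1. Of 63 genes named by the rule or in the text that passed, 34, 59 and 39 kept the call without saline 1, saline 2 and PFF 1, and 28 kept it under each of these, without the shared wells and without the other-lineage cells. Among the 28 are Cd5, Cd28, Cd2, Cd6, Thy1, Trac, Ccr9, Lef1, Il7r, S1pr1, Klf2, Icos, Btla and Iigp1. Gzma, Gzmb, Itga4, Fcer1g and Klrd1 are not among them. Each of these was lost without saline 1, and all but Itga4 were also lost without PFF 1.

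**Figure D3:**
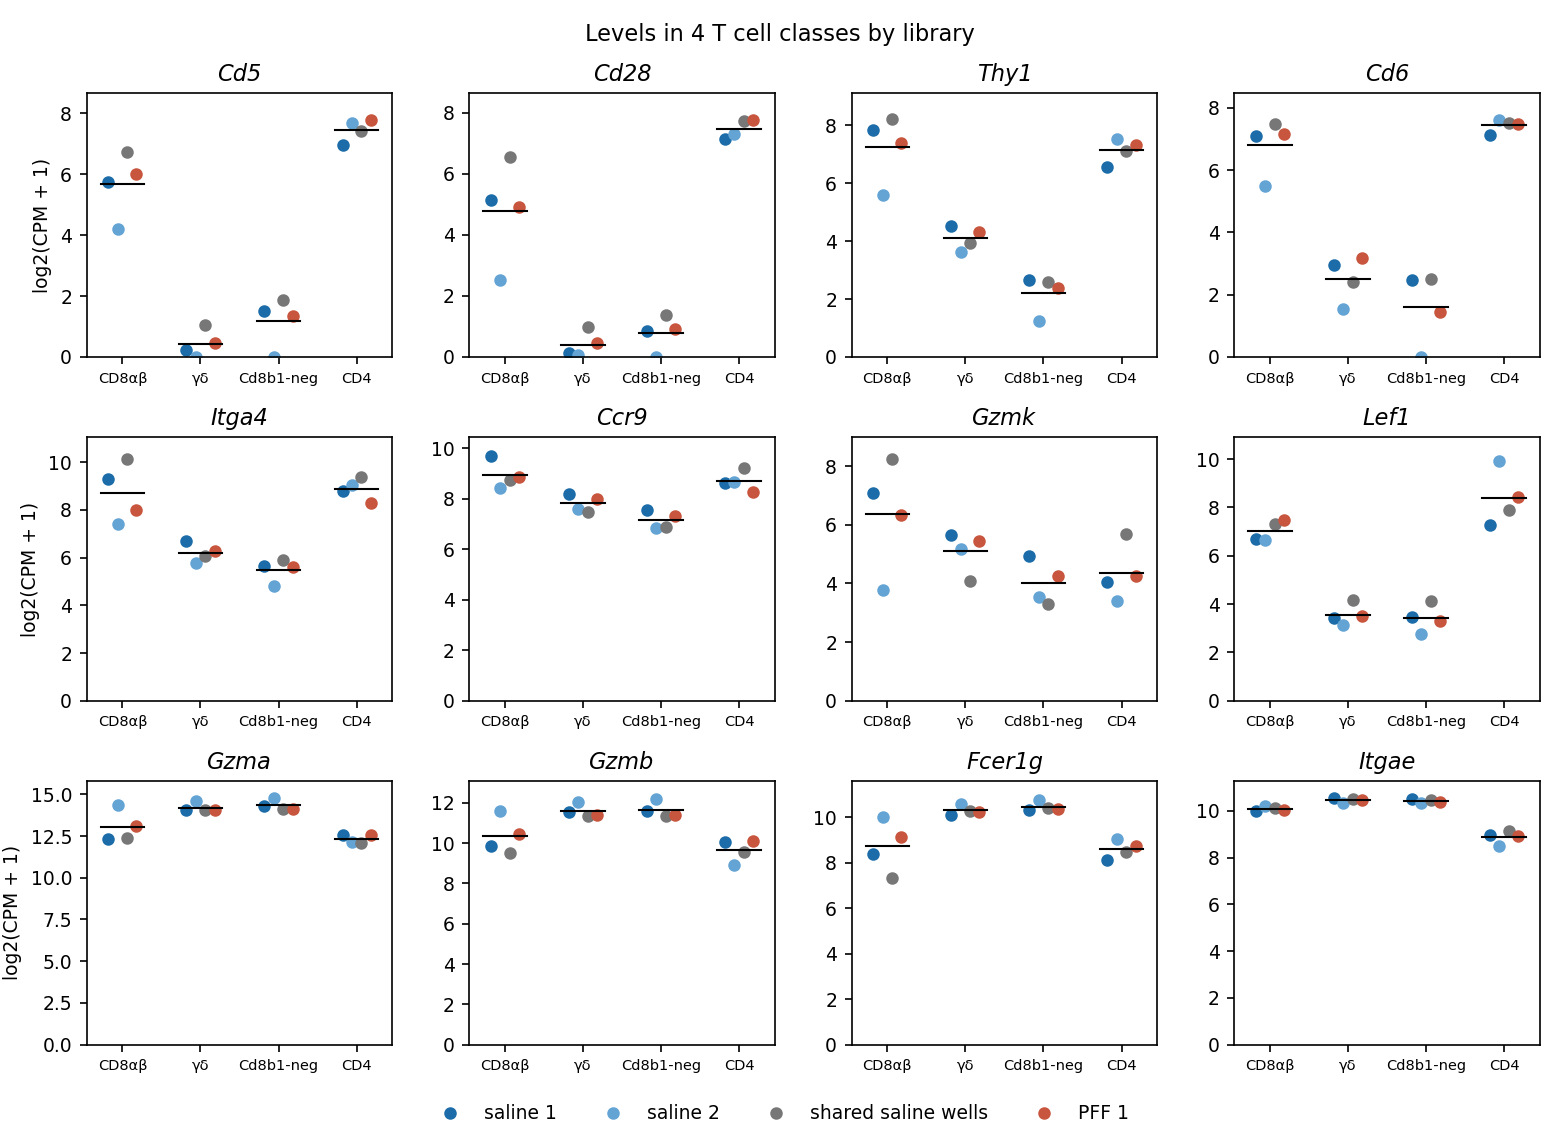
Levels of 12 genes in CD8 alpha-beta, Cd8b1-negative CD8, gamma-delta and CD4 T cells, as log2(CPM + 1) of the summed counts of each class in saline 1, saline 2, the pooled shared saline wells and PFF 1 (points) with their mean (line). Cd5, Cd28, Thy1, Cd6, Itga4 and Lef1 lie above the gamma-delta and Cd8b1-negative classes in every library, and Gzma, Gzmb and Fcer1g lie below those classes within each library, nearest in saline 2.

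The comparison with Cd8b1-negative CD8 T cells asked which genes differ between cells with detected Cd8b1 and CD8 cells with Trac but no detected Cd8b1. That class of 4926 cells had Cd8a, Trac and Cd3e but no Cd8b1, Trdc or Cd4, and the same limit on the Klra genes. Cd8a and Trac were not asked of the CD8 alpha-beta class, so the rules are not alike. Cells whose Cd8b1 RNA was not captured can fall in the Cd8b1-negative class. The part of both in the results, among them those of receptor chains, was not tested. Of 11474 genes, 822 (7.16%) passed in edgeR, 475 (4.14%) higher and 347 (3.02%) lower in the CD8 alpha-beta class. Without the other-lineage cells 475 passed, 267 higher and 208 lower, of which 458 were among the 822. The member sums are the same as in the comparison with gamma-delta cells, so these results are not independent of it.

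Thy1 separated the classes, at 227, 47.2, 301 and 165 CPM against 5.35, 1.39, 5.09 and 4.16 (5.54 ± 0.19, adjusted p = 1.58e-06). The log2 fold changes of Cd6 (5.77 ± 0.35), Cd28 (5.57 ± 0.31) and Cd5 (5.41 ± 0.29) were of like size, and that of Cd2 was smaller (3.46 ± 0.23). Themis, a regulator of receptor signal strength in the thymus, stood at 996, 271, 1062 and 738 CPM against 114, 64.1, 84.5 and 105 (2.96 ± 0.25, adjusted p = 2.25e-04). Of 19 receptor and signalling genes tested, 6 were higher and 2 lower (Cd3g and Zap70), and without the other-lineage cells 8 were higher and none was lower. Receptor beta chains did not pass, with Trbc1 at -0.31 ± 0.16 (adjusted p = 0.336) and Trbc2 at 0.14 ± 0.17 (adjusted p = 0.726).

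Natural killer type genes were lower in 9 and higher in 4 of 18, with a median log2 fold change of -1.10. Fcer1g (-1.71 ± 0.32, adjusted p = 0.0137) was at 1285, 1748, 1355 and 1327 CPM in the Cd8b1-negative class, and Tyrobp (-1.28 ± 0.32, adjusted p = 0.0459) at 1352, 1806, 1290 and 1284, against 625, 1413, 182 and 654 in the CD8 alpha-beta class. Klra5 (-1.94 ± 0.32), Klrb1 (-2.15 ± 0.26) and Klrd1 (-1.23 ± 0.21) were lower, and reads of Klra5 may be shared with its near copies. Klrc1 (3.90 ± 0.63, adjusted p = 0.0101) and Klrc2 (3.19 ± 0.50), the NKG2A and NKG2C chains that pair with CD94, went the other way, with Klrc1 at 7.58, 0, 40.8 and 9.36 CPM against 0, 0, 5.46 and 0.128. Without the shared wells neither Klrc gene passed the low-count filter, so neither was tested, and both calls were lost without PFF 1.

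**Figure D4:**
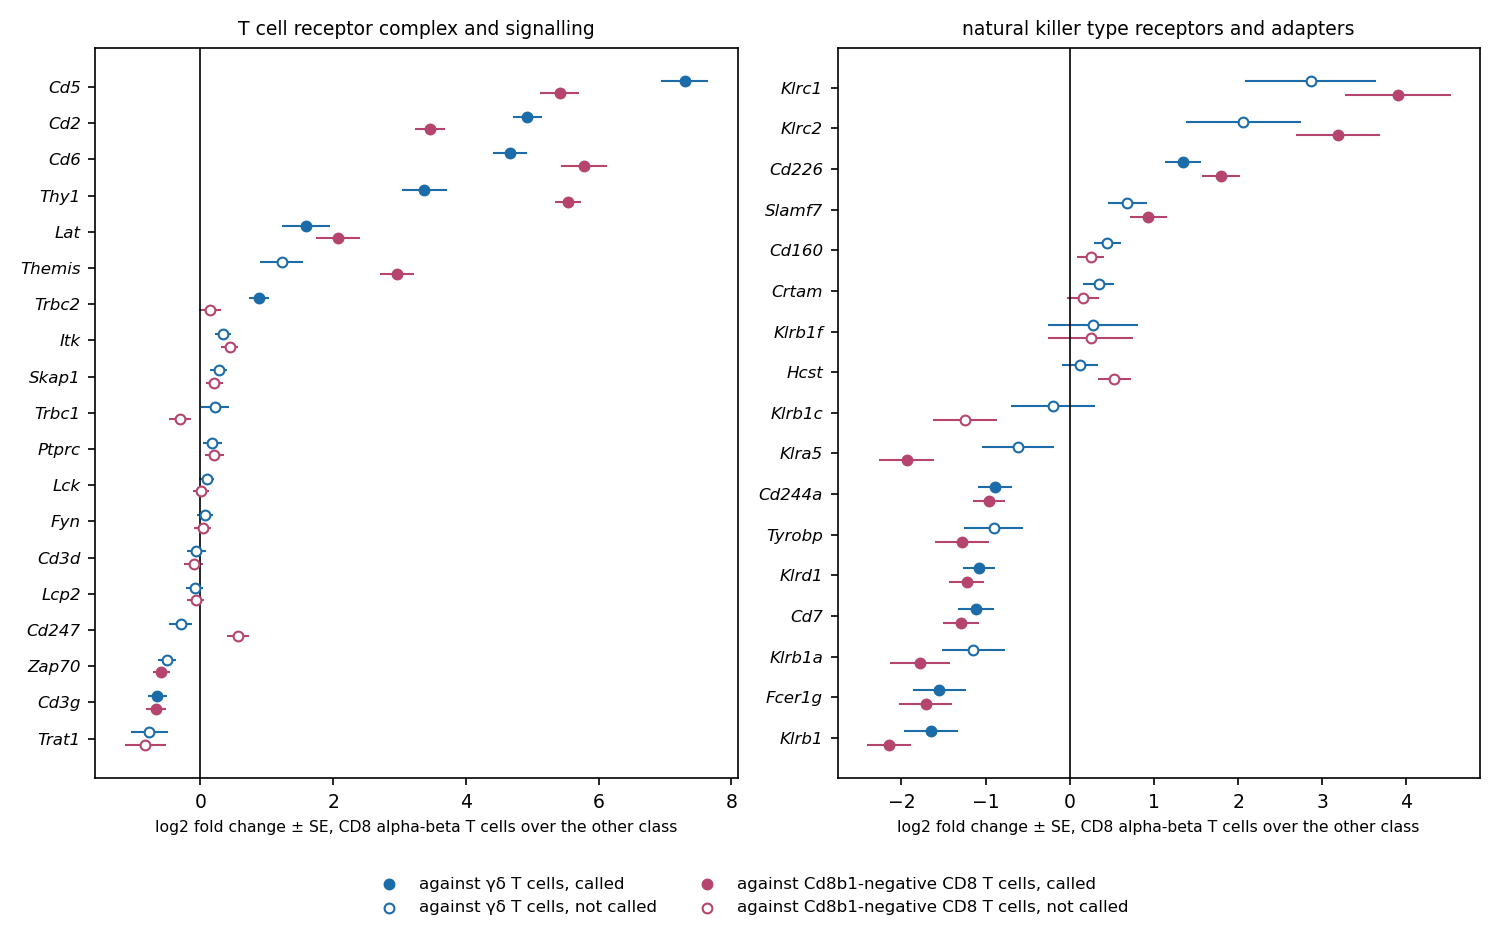
Log2 fold change ± SE (edgeR) of the receptor signalling and natural killer type genes tested in both comparisons, in CD8 alpha-beta T cells against gamma-delta and against Cd8b1-negative CD8 T cells, with filled points for an adjusted p under 0.05. Cd5, Cd6, Cd2 and Thy1 lie far above 0 in both, and Fcer1g, Klrd1 and Cd7 below.

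Granzymes A and B were again lower, Gzma at -1.25 ± 0.27 (adjusted p = 0.0247) and Gzmb at -1.26 ± 0.22 (adjusted p = 0.0106). Granzyme K, found in memory and tissue CD8 cells, was higher in 4 of 4 libraries, at 136, 12.6, 299 and 80.1 CPM against 29.4, 10.6, 8.89 and 18.3 (2.78 ± 0.63, adjusted p = 0.0309), and it missed the threshold against gamma-delta cells (1.62 ± 0.72, adjusted p = 0.283). The difference between those 2 results was not tested. Itga4 (3.29 ± 0.32), Ccr9 (1.81 ± 0.14) and Cxcr3 (1.49 ± 0.25) were higher, and Itgae did not pass (-0.30 ± 0.13, adjusted p = 0.241). Of 12 naive and circulating genes 11 were higher, with a median of 4.73. The transcription factor Helios (Ikzf2, -1.70 ± 0.33, adjusted p = 0.0186) and the interleukin 15 receptor chain Il2rb (-1.39 ± 0.32, adjusted p = 0.0340, and 0.0515 without the other-lineage cells) were lower. Icos (4.83 ± 0.37), Btla (3.50 ± 0.54) and Cd52 (1.22 ± 0.26) were higher, Lag3 lower (-1.26 ± 0.18). Of 19 interferon response genes 8 were higher and none lower (7 without the other-lineage cells), such as Isg15 (1.58 ± 0.32) and Ifi27l2a (2.65 ± 0.34), and of 16 cell cycle genes 2, Pclaf (1.43 ± 0.24) and Stmn1 (1.03 ± 0.24). In all, 346 genes passed without saline 1, 1559 without saline 2, 243 without PFF 1 and 547 without the shared wells. Of 71 genes named that passed, 48, 70 and 45 kept the call without saline 1, saline 2 and PFF 1, and 32 under all of the settings above. Among the 32 are Thy1, Cd5, Cd28, Cd6, Cd2, Themis, Itga4, Ccr9, Lef1, Lag3 and Icos, and Gzma, Gzmk, Tyrobp, Ikzf2, Il2rb and Isg15 were lost without saline 1 and also without PFF 1.

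Against CD4 T cells few genes differed. The 259 cells with Cd4 and without Foxp3 (11 in saline 1, 10 in saline 2, 135 in the shared wells and 103 in PFF 1) formed the class. They also had Cd3e, no Cd8b1 or Trdc, and the same limit on the Klra genes. Of 8085 genes 76 (0.940%) passed in edgeR, 16 (0.198%) higher and 60 (0.742%) lower in CD8 alpha-beta cells, and without the other-lineage cells 60, of which 52 were among the 76. Of 13 cytotoxic genes 2 were higher, of 21 residence and homing genes 3 and of 14 natural killer type genes 2, with none lower in these lists. Among the higher genes were Gzmk, at 136, 12.6, 299 and 80.1 CPM against 15.5, 9.69, 50.9 and 18.2 (2.32 ± 0.28, adjusted p = 0.00208), the cytotoxic receptor Crtam (2.46 ± 0.38), Cd160 (1.63 ± 0.21), the granule protein Ctsw (1.39 ± 0.20), the chemokine Ccl4 (2.12 ± 0.41) and Smyd1 (3.06 ± 0.38). The E-cadherin gene Cdh1 (2.06 ± 0.26) and the residence chemokine receptor Cxcr6 (1.32 ± 0.20) were higher as well. Itgae stood at 1008, 1186, 1118 and 1042 CPM against 496, 359, 555 and 487 in CD4 cells (1.08 ± 0.22, adjusted p = 0.0421, and 0.0714 without the other-lineage cells).

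Of 4 tested genes of CD4 and regulatory T cells 3 were lower, as were 2 of 14 naive and circulating genes and 3 of 16 costimulatory and inhibitory receptors (3 of 12 and 2 of 16 without the other-lineage cells). Maf, a transcription factor of helper and regulatory T cells, was at 11.4, 17.3, 18.2 and 12.2 CPM against 387, 417, 647 and 483 (-5.16 ± 0.23, adjusted p = 4.62e-07). Cd40lg, the B cell helper ligand (-5.37 ± 0.74), the folate receptor Izumo1r (-4.51 ± 0.38), Il18r1 (-3.58 ± 0.42), Icos (-2.57 ± 0.43), Btla (-2.15 ± 0.28), the CD4 lineage factor Zbtb7b (-1.95 ± 0.35) and Tcf7 (-1.73 ± 0.26) followed. Thy1 (0.14 ± 0.40), Gzma (0.58 ± 0.45) and Gzmb (0.50 ± 0.41) were far from the threshold, each with an adjusted p of 1, and no receptor signalling gene of 21 passed. Of 32 genes named that passed, 17, 32 and 3 kept the call without saline 1, saline 2 and PFF 1. The 3 are Maf, Izumo1r and Il18r1. In all, 40 genes passed without saline 1, 250 without saline 2, 6 without PFF 1 and 31 without the shared wells.

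Between PFF and saline, the comparison of the series, few genes differed in CD8 alpha-beta T cells. In edgeR, 8 of 8561 genes (0.0934%) passed, 6 (0.0701%) higher and 2 (0.0234%) lower in PFF 1 than in saline 1 and saline 2. The split turned without the other-lineage cells (4 higher, 9 lower), with a mitochondrial limit of 10% (6 and 9), with 2 or more Cd8b1 UMIs asked (6 and 7) and with cells thinned to 2000 UMIs (1 and 2). The only spread available is that between the 2 saline libraries (1 residual degree of freedom), which the test takes to hold for PFF 1 too. DESeq2 called 0 genes, with 23 at an unadjusted p under 0.05, where edgeR had 167. Most of the 8 rest on few cells. Hist1h2ae, a replication-dependent histone, was counted 2 times in saline 1, 2 times in saline 2 and 205 times in PFF 1 (4.41 ± 0.61, adjusted p = 2.73e-06), of which 112 lay in 1 of 14 cells, and PFF 1 against saline 1 alone, of the same batch, gave 3.45 with no test. Its level in the shared saline wells, which the test did not use, was 219 CPM. The linker histone gene Hist1h1b had 0, 0 and 97 UMIs, 51 of them in 1 of 3 cells, with 135 CPM in the shared wells.

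Of genes of B and plasma cells, Igkc had 1, 9 and 242 UMIs (3.43 ± 0.52, and 1.52 with an adjusted p of 1 without the other-lineage cells) and 4040 CPM in the shared wells. Ebf1 had 1, 0 and 97 UMIs, 48 of them in 1 cell, and Bank1 had 0, 0 and 85, with 45 in 1 cell. The predicted gene Gm12840 was the most evenly spread, with 8, 2 and 213 UMIs, the last over 55 cells with at most 16 in any (3.05 ± 0.55), and its value against saline 1 alone was 1.72. Zscan10 had 0, 41 and 0 UMIs, all 41 in 1 cell, and Slc8a1 had 4, 50 and 14, with 39 of the 50 in 1 cell (-2.95 ± 0.63, and -0.99 against saline 1 alone). Without the other-lineage cells 13 genes passed, of which 4 were among the 8. Adding the pooled shared wells as another saline library left 0 called (47 at an unadjusted p under 0.05), and so did leaving out the 2 cells of PFF 1 whose barcode is also in saline 2, or cells under 1000 UMIs.

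**Figure D5:**
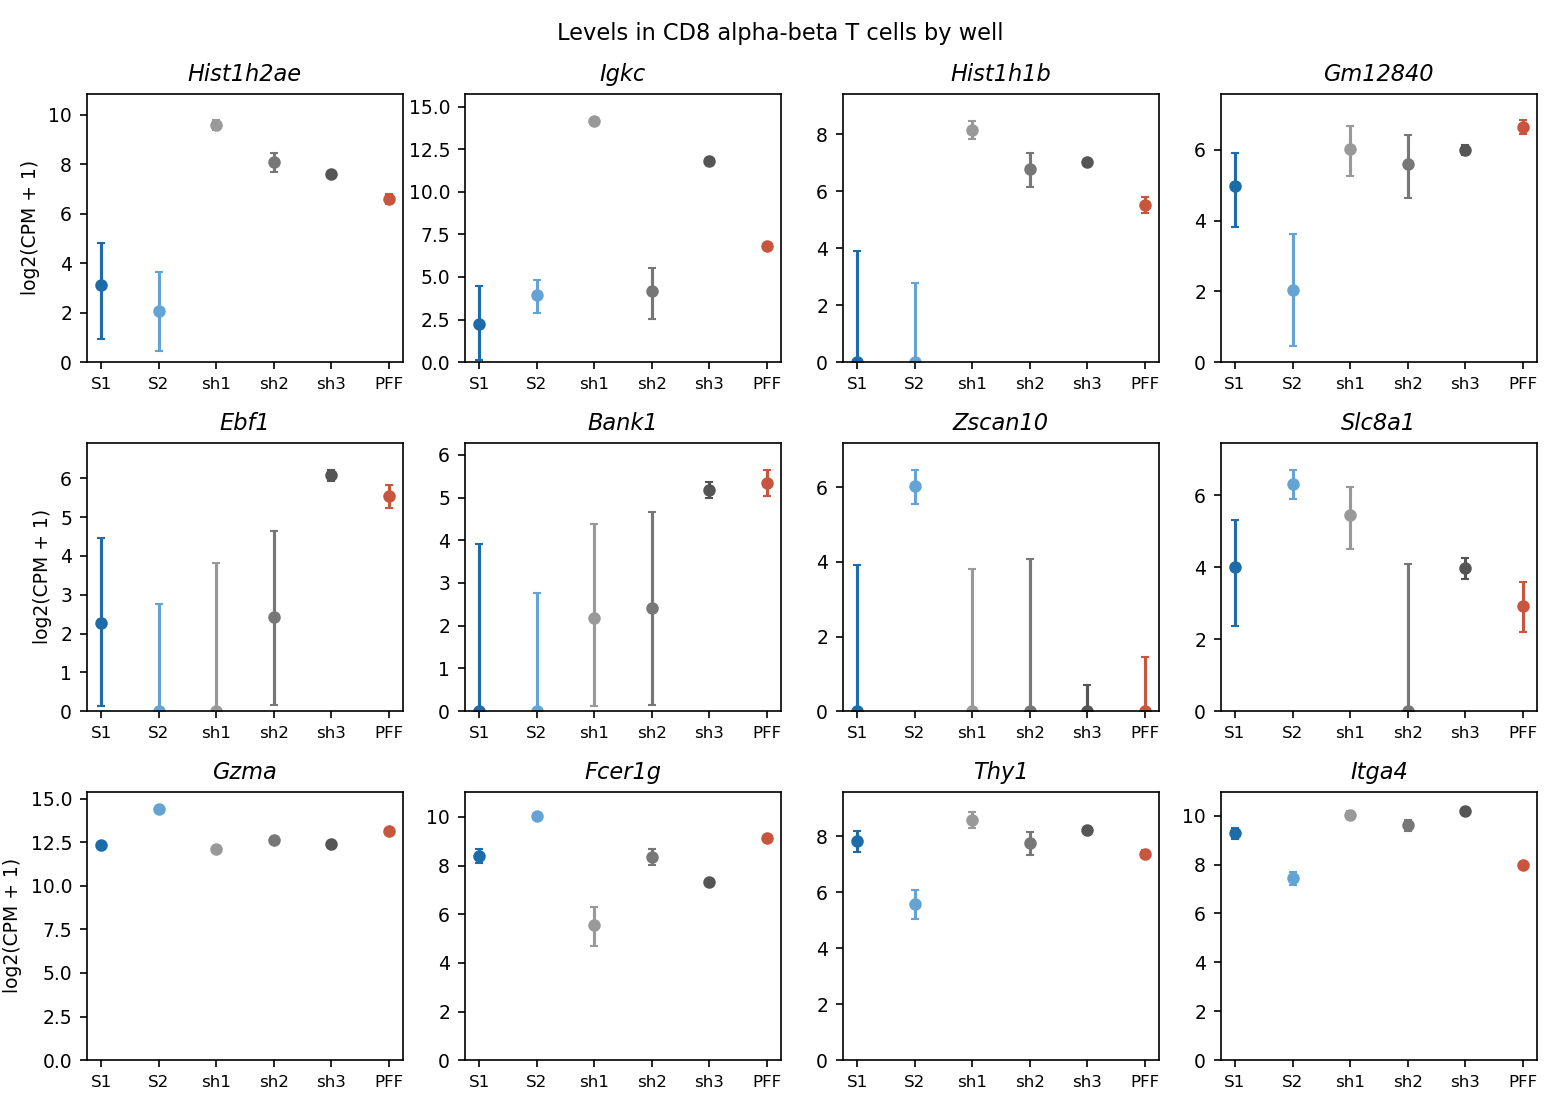
Levels of 12 genes in CD8 alpha-beta T cells by well, as log2(CPM + 1) with exact Poisson 95% intervals for counting error, for saline 1, saline 2, the 3 shared saline wells and PFF 1. The 8 called genes are shown with Gzma, Fcer1g, Thy1 and Itga4, for each of which PFF 1 lies between saline 1 and saline 2.

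No gene of the T cell lists passed between PFF and saline. Of all genes tested 0.0934% did, so nothing is read from that count. The median log2 fold change was 0.24 over 21 receptor and signalling genes, -0.15 over 13 cytotoxic genes, 0.53 over 14 naive and circulating genes, -0.23 over 14 natural killer type genes and 0.45 over 17 interferon response genes, beside -0.02 over all genes tested. PFF 1 lay between saline 1 and saline 2 for Gzma (8877 CPM against 5183 and 21467), Gzmb (1398 against 917 and 3116), Fcer1g (557 against 337 and 1049), Tyrobp (654 against 625 and 1413), Thy1 (165 against 227 and 47.2), Itga4 (252 against 621 and 171), Gzmk (80.1 against 136 and 12.6), Cd28 (29.0 against 34.1 and 4.72) and Itgae (1042 against 1008 and 1186). Cd5, at 63.7 CPM against 53.0 and 17.3, lay above both saline libraries but below the shared wells, at 145, 104 and 104 CPM. Isg15, at 88.5 CPM against 37.9 and 34.6, was above both saline libraries (1.34 ± 0.44) with an adjusted p of 0.861. On simulated counts for this design 76% of genes changed 4-fold and 96% of those changed 8-fold were found. Of 7870 unchanged genes 8 were called. The changed genes were drawn from those at 20 CPM or more. Library sums were simulated, without counts heaped in single cells as in several of the called genes, so no power for the lists is read from this.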

How the data were processed

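The authors deposited unnormalised whole-number UMI counts of 32285 genes for each barcode, made with Cell Ranger 7.0.0 per the file headers, on mm10 per the submitters' processing notes. How cells were called and wells merged, and how strand and multi-mapped reads were counted, is not stated, so near copies (Klra, Hist1 and receptor gamma genes) are uncertain.

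Cells were kept and chosen by the limits in the report, each once. The sums over the cells of a class in a library were tested in edgeR 4.0.16 under R 4.3.3 (TMM, filterByExpr, quasi-likelihood F test, 2-sided, Benjamini-Hochberg adjusted p under 0.05 over all genes tested). Genes used by a class rule stayed out of the counts of calls. Class comparisons had the library as a block over 4 libraries. PFF against saline had no block, since adding batch to 3 libraries would use up the last residual degree of freedom. CPM are UMIs per 1000000 UMIs of the class sum, with a prior count of 2 in fitted changes against single libraries. Detection was compared after thinning each cell to 1000 UMIs in Python 3.11.15 (numpy 2.4.6, scipy 1.17.1). Scrublet (scanpy 1.11.5) marked under 0.5% of cells in all wells but shared well 2 (0.577%), so doublets stayed in and the top scores (0.8% per 1000 cells) were removed as an alternative.

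The members, the 26 gene lists (397 genes, of which 9 are not in the files) and the tests were chosen with earlier results of these data known. Named genes are list genes, the 12 highest and 12 lowest called genes at 20 CPM or more per class comparison, the 12 highest and 12 lowest genes of PFF against saline with PFF 1 above both or below both saline libraries, and the 15 leading genes. Single genes behind small counts were named after their values were seen. The use of other-lineage limits, barcodes shared by libraries and the 2 Cd8b1 UMI limit for class comparisons was also chosen after seeing the data. Tested on simulated counts with known changes, drawn from genes at 20 CPM or more, the class comparisons recovered 100% of 4-fold changes. Unchanged genes called were 10 of 12180 against gamma-delta, 15 of 11073 against Cd8b1-negative and 11 of 7484 against CD4 T cells. All libraries were simulated from a shared mean profile, without library effects or counts heaped in single cells. No power for the real class comparisons is therefore read from these shares. Promoters come from RefSeq (GRCm38.p6), in which Cd8b1, Thy1, Cd28, Cd6, Cd2 and Tyrobp had no entry, and a second core searched, the ETS core CCGGAA on either strand, is in 14.9% of promoters. DESeq2 1.42.0 was an alternative. A planned comparison within the class is not reported here. Member UMI sums ranged from 230416 in shared well 2 to 6030423 in shared well 3, with 263947, 635729 and 2135868 in saline 1, saline 2 and PFF 1.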

Additional observations from a re-analysis of the deposited data

How the results depend on the processing

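For PFF against saline (8 calls), RLE size factors and thinning to 2000 UMIs gave 3 calls each, no low-count filter 13 (7 higher, 6 lower), DESeq2 0, both saline files whole 3750, the pooled shared wells as an added saline library 0 (also without other-lineage cells), each well as a library 0, at least 1000 UMIs 0, at most 10% mitochondrial UMIs 15 (6 and 9), doublets removed 2, 2 or more Cd8b1 UMIs 13 (6 and 7), Cd3d and Cd8a also asked 1, no shared barcodes 0 and no other-lineage cells 13 (4 and 9). The whole files hold the shared wells 2 times. With either saline library left out nothing remains to estimate the spread from, so values with no count of calls result.

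Directions turned in some settings. With both files whole, Hist1h2ae stood at -1.19, Igkc at -5.16, Hist1h2ap at -2.19, Slc15a2 at -0.17, Klk1 at 0.18, Klra17 at 0.32, Fads2 at 0.22, Nucb2 at 0.75, Hist1h1b at -1.58 and Ebf1 at -0.44. With the shared wells as an added library, Hist1h2ae stood at -0.01, Igkc at -3.71, Hist1h2ap at -1.08 and Hist1h1b at -0.41, with each well as a library at -1.49, -5.44, -2.22 and -1.31, and with the added library and no other-lineage cells Igkc stood at -2.13, Hist1h2ap at -1.03, Hist1h1b at -0.38, Ebf1 at -1.74 and Bank1 at -1.22. Against gamma-delta cells Cd69 ranged from -0.21 to 0.05 with a library left out (0.05 without saline 1), and without other-lineage cells Zeb2 at -0.15, Flt3 at -0.41 and Cd74 at -0.60. Against Cd8b1-negative cells Prf1 stood at 0.02 with each well, 0.05 thinned and between -0.09 and 0.04 (without saline 2) with a library left out. Against CD4 cells Thy1 stood at -0.38 without the shared wells and from -0.01 (without saline 1) to 0.62 with a library left out, and Gzmb at -0.20 thinned, from -0.04 (without saline 2) to 0.84 with a library left out and -0.06 with 2 or more Cd8b1 UMIs. The causes were not tested.

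Against gamma-delta cells (643), no filter gave 1362 (629 higher, 733 lower), DESeq2 1006, each well 983, thinning 1032 (441 and 591), 2 or more Cd8b1 UMIs 1340, no other-lineage cells 311 and leaving out a library 199 to 1205. Against Cd8b1-negative cells (822) these were 1959 without the filter, 1304 with each well, 547 without the shared wells (391 and 156), 1451 with 2 or more Cd8b1 UMIs, 475 without other-lineage cells and 243 to 1559 without a library. Against CD4 cells (76) they were 402, DESeq2 152, each well 38, no shared wells 31, thinned 8 and 6 to 250 without a library. DESeq2 moved the median log2 fold change over all genes to 0.19, 0.17 and -0.23 in the 3 class comparisons. Without the replicate block of libraries the class comparisons gave 594 (416 higher, 178 lower), 762 and 62 calls. No paired analysis was possible for PFF against saline because these groups share only replicate number 1.

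With 2 or more Cd8b1 UMIs the share of cells kept was 0.788% in saline 1, 0.485% in saline 2, 6.76% in the shared wells and 1.26% in PFF 1, after thinning 1.09%, 0.358%, 6.36% and 1.04% (PFF 1 then under saline 1), and in the shared wells 9.06% at a 10% mitochondrial limit. At 2000 UMIs, Thy1 was detected in 39.9%, Cd5 in 15.6%, Fcer1g in 19.5% and Gzma in 83.3% of cells, against 23.5%, 8.72%, 13.6% and 73.1% at 1000. Single-gene results that kept direction and side of the threshold numbered 854 against gamma-delta, 953 against Cd8b1-negative and 386 against CD4 cells. For PFF against saline 306 did so or, where no test was possible, stayed within the SE, and 25 untested values moved by more. Over all comparisons 299 fell below the threshold, 64 rose above it and 35 turned direction.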

Other observations

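The share of cells with a UMI of cell cycle genes differed between the wells. After thinning to 1000 UMIs, a UMI of Mki67, Top2a, Birc5 or Cdk1, genes of mitosis and replication, was found in 3 of 80 cells of saline 1 (3.75%), 2 of 48 of saline 2 (4.17%), 10 of 57 (17.5%), 7 of 56 (12.5%) and 100 of 836 (12%) of the shared wells, and 8 of 219 of PFF 1 (3.65%). Saline 1, saline 2 and PFF 1 lay close together and the shared wells above them. Free RNA of these genes was not measured, so no rate of cycling is read from these shares.

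A segment of the receptor beta chain was detected in 13.2% of cells in saline 1 to 45.7% in saline 2. Cells were not thinned here, and the median depth of the class was 2779 UMIs in saline 1 and 13019 in saline 2. The part of depth in this range was not tested. Leaving out other-lineage cells, a Trbv gene was detected in 10 of 76 cells of saline 1, 21 of 46 of saline 2, 236 of 809 of shared well 3 and 59 of 213 of PFF 1. The leading segment was Trbv12-1 in saline 1 (3 cells) and shared well 3 (57 cells), and Trbv13-2 in saline 2 (6 cells) and, level with Trbv16, in PFF 1 (7 cells each). In shared well 3 Trbv19 (37 cells) and Trbv29 (35 cells) followed. No single segment took more than 24.2% of the cells with a Trbv gene in shared well 3.

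Lists of housekeeping and stress programmes held 2 calls at most against gamma-delta and Cd8b1-negative CD8 T cells. With 5.09% and 7.16% of all genes called there, nothing particular to these lists is read from such counts. Of 27 nuclear genes of oxidative phosphorylation none passed against gamma-delta or Cd8b1-negative CD8 T cells, and of 14 glycolysis genes none and 1 did. Of 28 immediate early and dissociation genes 1, Dusp5, was lower than in gamma-delta cells and none was higher, and of 26 tested against Cd8b1-negative cells 2, Nr4a2 and Dusp5, were lower. The calls in these lists were lost without the other-lineage cells.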
